A study of Mus musculus with 25 samples.

Results

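Mouse embryos were made by somatic cell nuclear transfer (SCNT) and co-treated with an inhibitor of G9a and with trichostatin A (TSA). They were compared with embryos made by in vitro fertilization (IVF). The genes that still differed were sorted by whether untreated clones activated in the same way already showed the difference. Of 51146 autosomal genes in the count table, 25794 had a mean of at least 1 read over all libraries and were tested, and 25352 were below that limit and were not tested. A gene was called when its adjusted p was under 0.05 and its fold change over 2. The 6 co-treated libraries differed from the 4 IVF libraries in 1616 genes that were higher (6.27% of those tested) and 2596 that were lower (10.1%). A difference was taken as common to the 3 compounds when the pooled comparison was called and each compound alone showed the same direction by over 2-fold, which held for 1132 genes that were higher (4.39%) and 1806 that were lower (7.0%), 2938 in all. These counts follow from the rule that chose the genes and are given as a description.

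The samples were pools of 5 to 10 late two-cell embryos, collected 28 to 29 h after insemination or activation. IVF embryos came from oocytes of the B6N strain fertilized with DBA/2 sperm. SCNT embryos were BDF1 oocytes that received the nucleus of a BDF1 cumulus cell, a somatic cell that surrounds the oocyte, so that all SCNT embryos were female and the IVF pools were mixed. Sex chromosomes were left out for that reason. The co-treated embryos, called CC_TG, were activated in latrunculin A and received TSA at 25 nM for 8 h and 1 of the G9a inhibitors RK-701, A366 or UNC0638 at 1 µM for 24 h, with 2 libraries for each inhibitor. The control cumulus clones, called CC_cont, were activated in latrunculin A and received neither drug (2 libraries). A further readout came from SCNT embryos activated in cytochalasin B, either without mRNA (2 libraries) or injected with mRNA of the histone demethylase Kdm3a or Kdm4d (2 libraries each), none of which had an inhibitor or TSA. Other cumulus clones activated in latrunculin A enter only a comparison of distances. They were given RK-701 (3 libraries) or A366 (2 libraries) at 1 µM for 24 h without TSA, or TSA at 25 nM for 8 h without an inhibitor (2 libraries). IVF embryos had no activation, no latrunculin A and no solvent, and the oocyte strain changes together with the cloning procedure, so these cannot be told apart in any comparison with IVF. Each library was its own pool, the labels give no batch or date, and p-values reflect the spread between these pools.

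At the late two-cell stage the mouse embryo replaces the RNA that the oocyte had stored with transcripts of its own genome, a step called zygotic genome activation. In clones this step starts from the chromatin of a differentiated cell. G9a (Ehmt2) and its partner GLP (Ehmt1) place methyl groups on lysine 9 of histone H3 (H3K9), a mark of silent chromatin, KDM3A and KDM4D remove them, and TSA blocks the enzymes that remove acetyl groups from histones. In pooled embryos a change in the RNA of every cell and a change in how many embryos carried it cannot be told apart.

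The 2938 genes fell into 3 classes. A gene was residual when CC_cont was also called against IVF in the same direction, which held for 1359 genes (733 higher and 626 lower). It was newly arisen when CC_cont was not called against IVF in that direction and the direct comparison of co-treated embryos with CC_cont was called, which held for 307 genes (64 higher and 243 lower). The other 1272 genes (335 higher and 937 lower) passed neither condition and are called undecided. Membership depended on which untreated clones were used. When clones activated in cytochalasin B without mRNA replaced CC_cont, 30 of the 64 newly arisen higher genes kept their class. So did 122 of the 243 newly arisen lower genes, 623 of the 733 residual higher genes and 458 of the 626 residual lower genes. The newly arisen classes then held 69 and 239 genes, so their sizes alone do not show this exchange of members. Only 2 CC_cont libraries enter this division, and each of them decides part of it. The newly arisen genes that were higher numbered 123 without CC_cont replicate 1 and 32 without CC_cont replicate 2, and 41 without UNC0638 replicate 1, while the residual genes that were lower numbered 372 without CC_cont replicate 2.

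Starting from the controls, CC_cont was higher than IVF in 2271 genes (8.8% of those tested) and lower in 1679 (6.51%). Of the 2271, 733 were residual (32.3%) and 1311 were no longer called in the pooled comparison (57.7%), and 11 were called in the opposite direction. Of the 1679, 626 were residual (37.3%), 845 were no longer called (50.3%) and 2 had turned. Both comparisons share the 4 IVF libraries, so the counts show where the calls went and are not separate evidence. The direct comparison of co-treated embryos with CC_cont, which uses no IVF library, was called higher in 927 genes (3.59%) and lower in 1716 (6.65%). Among the 733 residual genes that were higher than IVF, the direct comparison called 76 lower and 9 higher, and 648 were not called. Among the 626 that were lower than IVF, it called 38 higher and 8 lower, and 580 were not called.

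The stretches of 200 bases before the start sites of 4 residual genes are shown because they differ in their number of CpG, the pairs of bases at which DNA is methylated. They are taken from RefSeq on GRCm38.p6 and run 5′ to 3′ on the strand of the gene, with each CpG in capitals. Lhx1 (chr11:84525535-84525734, minus strand, 23 CpG) and Tbx20 (chr9:24774304-24774503, minus strand, 18 CpG) encode transcription factors of embryonic development. Omt2a (chr9:78314049-78314248, minus strand, 1 CpG) and Omt2b (chr9:78327830-78328029, plus strand, 0 CpG) are neighbouring genes of the oocyte. All 4 were lower in co-treated than in IVF embryos. The stretches of Omt2a and Omt2b lie inside the counted genes (chr9:78311972-78314796 and chr9:78327589-78329620), whose annotated starts differ from those of RefSeq. Those of Lhx1 and Tbx20 adjoin the start of the counted gene, so the positions are not alike.
Lhx1: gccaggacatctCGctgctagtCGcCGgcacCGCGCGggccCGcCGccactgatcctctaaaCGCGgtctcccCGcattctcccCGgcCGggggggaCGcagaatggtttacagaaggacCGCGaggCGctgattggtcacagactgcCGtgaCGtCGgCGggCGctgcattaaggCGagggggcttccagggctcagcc
Tbx20: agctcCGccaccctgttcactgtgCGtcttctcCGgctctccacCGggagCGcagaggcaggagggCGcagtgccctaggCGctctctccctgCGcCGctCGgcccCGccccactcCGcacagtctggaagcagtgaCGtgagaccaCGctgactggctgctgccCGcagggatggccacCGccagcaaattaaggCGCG
Omt2a: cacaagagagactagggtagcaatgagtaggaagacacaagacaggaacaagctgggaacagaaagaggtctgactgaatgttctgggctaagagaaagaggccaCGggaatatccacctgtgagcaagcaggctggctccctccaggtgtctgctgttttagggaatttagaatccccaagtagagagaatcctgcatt
Omt2b: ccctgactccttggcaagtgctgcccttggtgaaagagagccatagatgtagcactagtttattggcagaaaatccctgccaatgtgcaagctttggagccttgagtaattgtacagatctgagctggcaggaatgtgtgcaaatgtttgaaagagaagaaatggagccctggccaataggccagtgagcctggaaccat

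A second pair is shown for the motif CACGTG, an E-box, which is printed in capitals. Ddx4 (chr13:112652311-112652510, minus strand) holds it 29 bases before the start site, and Sycp1 (chr3:102936101-102936300, minus strand) 94 bases before it. Both belong to the genes that somatic cells keep silent and germ cells use, and both were residual and lower.
Ddx4: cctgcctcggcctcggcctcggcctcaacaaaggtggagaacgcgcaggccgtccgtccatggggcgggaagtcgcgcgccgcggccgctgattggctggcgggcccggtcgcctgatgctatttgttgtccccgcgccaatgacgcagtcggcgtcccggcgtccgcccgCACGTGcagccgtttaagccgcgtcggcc
Sycp1: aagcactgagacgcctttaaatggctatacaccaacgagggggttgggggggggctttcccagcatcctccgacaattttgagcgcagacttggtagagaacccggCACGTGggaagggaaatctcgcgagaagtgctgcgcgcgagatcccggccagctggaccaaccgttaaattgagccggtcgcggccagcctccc

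Among the 733 residual genes that stayed higher than IVF, the leading named genes encode a lens protein, transporters and enzymes of detoxification and kinase signalling. Levels of single genes are given as CPM, a gene's share of all gene reads of a library after scaling between libraries. Bfsp1 (chr2:143826528-143863173, minus strand, mm10), which encodes filensin of the lens cytoskeleton, was at 0 CPM in all 4 IVF libraries, at 158 and 155 CPM in the CC_cont libraries, and at 41.5 to 112 CPM in the 6 co-treated libraries with a median of 65.3. Every clone library was therefore far above every IVF library, and the co-treated libraries all lay below the controls. Against a floor of 3 reads in each IVF library the co-treated mean was at least 256-fold higher, and it fell by 1.25 ± 0.19 (SE) on the log2 scale from CC_cont (adjusted p = 0.00012).

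Steap3 (chr1:120190757-120272705, minus strand), an iron reductase of endosomes, was at 0, 0.124, 0.065 and 0.14 CPM in IVF embryos, at 10.9 and 22.5 CPM in CC_cont, and at 5.88 to 17.7 CPM with a median of 8.89 in co-treated embryos. The groups did not overlap, and the log2 fold change against IVF was 6.55 ± 0.42 (adjusted p = 1.6e-11). Its direct change from CC_cont was -0.77 ± 0.28 (adjusted p = 0.061). Gstm1 (chr3:108012255-108017973, minus strand), a glutathione transferase, was at 4.06, 3.29, 1.36 and 3.77 CPM in IVF, at 280 and 110 CPM in CC_cont and at 55.2 to 106 CPM (median 72.2) in co-treated embryos. It moved part of the way back, with a log2 fold change of 4.62 ± 0.34 against IVF (adjusted p = 1.7e-10) and of -1.39 ± 0.30 against CC_cont (adjusted p = 0.0019).

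Pxdn (chr12:29937608-30017658, plus strand), a peroxidase that cross-links collagen, had 1 read in IVF embryos, 0.156 CPM in replicate 1 and 0 in the other 3 libraries, and lay at 2.21 to 8.16 CPM (median 3.42) in co-treated embryos. The ratio of the co-treated mean to the IVF reads summed over their summed library sizes was 213, with a 95% counting interval of 38.3 to 8425 from the IVF read alone. Slc39a8 (chr3:135825279-135888572, plus strand), a carrier of zinc and manganese, was at 0, 0, 0.26 and 0 CPM in IVF and at 3.21 to 17.9 CPM (median 6.94) in co-treated embryos. Lrrk2 (chr15:91673175-91816120, plus strand), a kinase linked to Parkinson's disease, was at 0.312, 0, 0 and 0.559 CPM in IVF and at 2.97 to 9.43 CPM (median 4.43) in co-treated embryos. No co-treated library reached the IVF range for any of the 3 genes, and the log2 fold changes of Slc39a8 and Lrrk2 were 6.38 ± 0.78 and 4.63 ± 0.59 (adjusted p = 5.4e-07 and 1e-06).

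Of the 6 genes named among the 626 residual genes that stayed lower than IVF, 5 encode transcription factors of development. Sox11 (chr12:27334264-27342574, minus strand), a factor of neural progenitors, was at 26.1, 9.69, 33.0 and 11 CPM in IVF, at 0 in both CC_cont libraries and at 0 in 5 of the 6 co-treated libraries, with 0.514 CPM in UNC0638 replicate 2. Tbx20 (chr9:24718138-24774303, minus strand), a T-box factor of the heart, was at 8.9, 9.57, 7.47 and 10.4 CPM in IVF, at 0 in CC_cont and at 0 to 0.0783 CPM (median 0) in co-treated embryos. Lhx1 (chr11:84518284-84525535, minus strand), a LIM homeobox factor of the head organizer and kidney, was at 6.87, 8.57, 9.42 and 8.45 CPM in IVF, at 0.543 and 0 CPM in CC_cont and at 0 to 0.154 CPM (median 0) in co-treated embryos. All 3 genes were present in every IVF library and at most 0.543 CPM in every clone library shown.

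The fitted log2 fold change of Sox11 was -9.44 ± 1.10 (adjusted p = 8.1e-07). Tbx20 and Lhx1 had at most 3 reads over the co-treated libraries, and the ratio of the IVF mean to the co-treated reads summed over their summed library sizes was 375 (95% counting interval of the co-treated reads 104 to 3094) and 229 (78.3 to 1110). Irx2 (chr13:72628820-72634198, plus strand), an Iroquois homeobox factor, was at 6.56, 7.58, 6.37 and 5.38 CPM in IVF and at 0 to 0.143 CPM (median 0.0349) in co-treated embryos, with a log2 fold change of -7.35 ± 0.92 (adjusted p = 2.1e-06). Pax6 (chr2:105668900-105697364, plus strand), the paired-box factor of eye and brain, was at 5.15, 6.65, 7.47 and 9.7 CPM in IVF, at 0.38 and 0.0931 CPM in CC_cont and at 0 to 0.714 CPM (median 0.186) in co-treated embryos. Its log2 fold change was -6.11 ± 0.75 (adjusted p = 6.9e-07), and both RK-701 libraries were at 0. H2-Bl (chr17:36080189-36084223, minus strand), a class Ib histocompatibility gene, was at 6.25, 3.66, 4.61 and 3.7 CPM in IVF and at 0 in all 6 co-treated libraries, at least 20.8-fold lower.

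**Figure D1:**
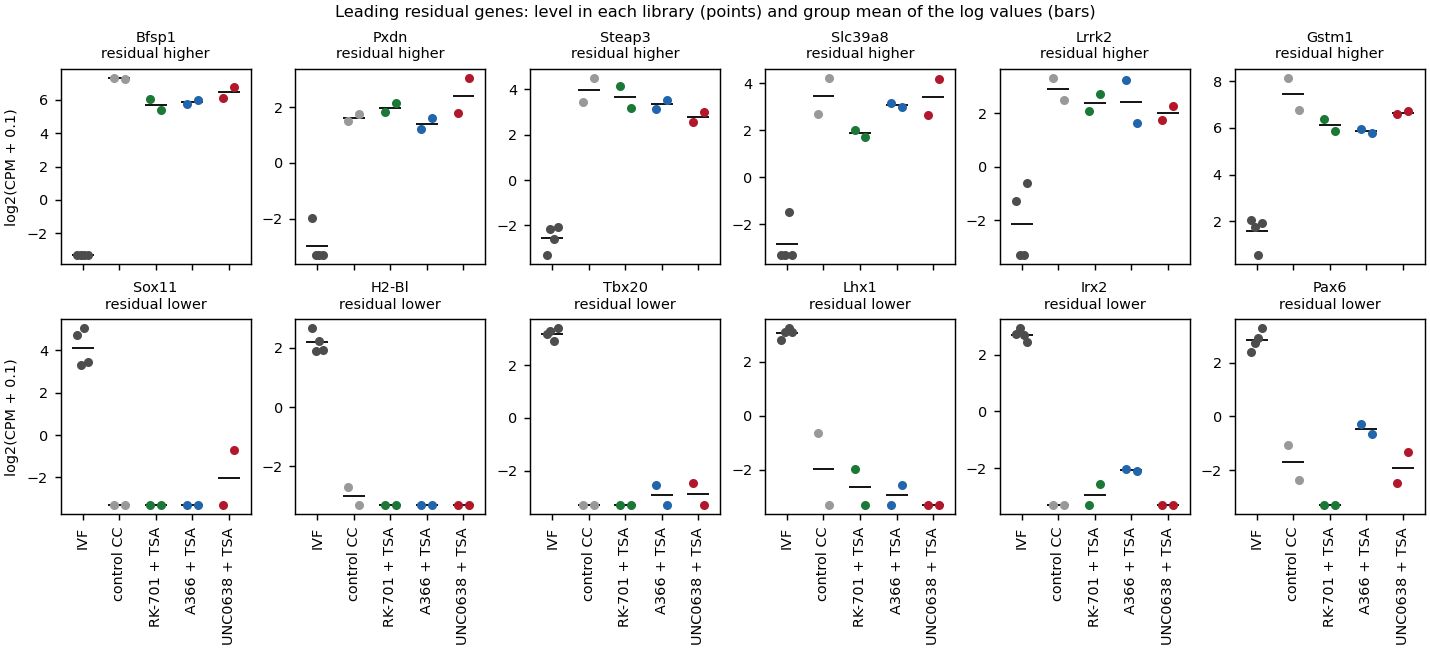
Level of the 6 leading residual genes that were higher than IVF (top) and the 6 that were lower (bottom) in each library, on the vertical axis as log2(CPM + 0.1), with 1 point for each library and a bar at the mean of the log values for IVF, control CC and the 3 co-treated groups. The IVF points stand apart from all clone points in every panel, for example 0 CPM of Bfsp1 in IVF against 41.5 to 112 CPM in co-treated embryos.

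The 64 newly arisen genes that were higher were at a median of 13.2 TPM (a level that also takes account of gene length) in IVF, 17.7 in CC_cont and 35.6 in co-treated embryos. Catsperb (chr12:101404653-101626009, plus strand), a subunit of the calcium channel of sperm, was at 0.937, 2.3, 2.66 and 1.12 CPM in IVF, at 1.74 and 1.49 CPM in CC_cont and at 5.44 to 22.2 CPM (median 12) in co-treated embryos. The lowest co-treated libraries were the pair with UNC0638 and the highest the pair with RK-701, and all 6 exceeded IVF and CC_cont. The log2 fold change was 2.63 ± 0.47 against IVF (adjusted p = 0.00012) and 2.79 ± 0.64 against CC_cont (adjusted p = 0.0035). Catsperb in the cytochalasin B control was at 0.968 and 3.19 CPM, below the co-treated range.

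Zfp981 (chr4:146502027-146539395, plus strand), a zinc finger protein, was at 54.6, 72.1, 84.7 and 85.9 CPM in IVF, at 69.9 and 38.1 CPM in CC_cont and at 181 to 399 CPM (median 326) in co-treated embryos. It rose by 2.06 ± 0.23 on the log2 scale against IVF (adjusted p = 1e-07), by 2.52 ± 0.31 against CC_cont (adjusted p = 7.3e-06), and by 2.25 ± 0.31 with demethylase mRNA against the cytochalasin B control (adjusted p = 6.4e-05). Near-identical zinc finger genes lie on the same stretch of chromosome 4, so its reads may be shared with them. Sdhd (chr9:50596357-50603812, minus strand), a membrane subunit of succinate dehydrogenase, was at 20.0, 13.8, 20.5 and 21.1 CPM in IVF, at 44.4 and 25.3 CPM in CC_cont and at 55.0 to 95.2 CPM (median 88.1) in co-treated embryos, a log2 fold change of 2.15 ± 0.21 (adjusted p = 1.4e-08). CC_cont lay between both groups for Sdhd, with a log2 fold change of 0.90 against IVF (adjusted p = 0.011) that was below the 2-fold limit. The cytochalasin B control was at 33.9 and 48.8 CPM for Sdhd, also between both groups. For Zfp981 it was at 94.4 and 50.7 CPM, below the co-treated range.

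Ctss (chr3:95526786-95556403, plus strand), the lysosomal protease cathepsin S, was at 10.5, 6.34, 6.5 and 5.24 CPM in IVF, at 7.77 and 6.7 CPM in CC_cont and at 21.3 to 41.8 CPM (median 23.6) in co-treated embryos, a log2 fold change of 1.97 ± 0.25 (adjusted p = 9.1e-07). Hist1h4i (chr13:22040636-22041362, minus strand), which encodes histone H4, was at 0.937, 0.745, 1.75 and 0.559 CPM in IVF and at 2.86 to 5.48 CPM (median 4.21) in co-treated embryos (log2 fold change 2.07 ± 0.45, adjusted p = 0.001). Fam120b (chr17:15396202-15433438, plus strand), a coactivator of the nuclear receptor PPARG, was at 2.65, 0.497, 0.52 and 1.47 CPM in IVF and at 2.72 to 12.8 CPM (median 6.32) in co-treated embryos (log2 fold change 2.42 ± 0.53, adjusted p = 0.0011). The 2 extremes of Fam120b were both UNC0638 libraries, and the lower of them was at 2.72 CPM against 2.65 CPM in the highest IVF library. The cytochalasin B control was at 4.84 and 2.95 CPM for Hist1h4i, within the co-treated range. For Ctss (10.4 and 16.9 CPM) and Fam120b (1.36 and 1.91 CPM) it was below that range.

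The 243 newly arisen genes that were lower were at a median of 1.83 TPM in IVF, 2.68 in CC_cont and 0.30 in co-treated embryos, and 29 of them had no read in any co-treated library. Cd74 (chr18:60803848-60812652, plus strand), the invariant chain of class II histocompatibility molecules, was at 6.71, 4.91, 10.5 and 4.26 CPM in IVF, at 6.36 and 5.68 CPM in CC_cont and at 0 to 1.81 CPM (median 0.56) in co-treated embryos. Pdgfa (chr5:138976014-138997370, minus strand), a growth factor of the preimplantation embryo, was at 9.06, 7.45, 10.6 and 8.17 CPM in IVF, at 15.3 and 11.5 CPM in CC_cont and at 0 to 2.86 CPM (median 1.82) in co-treated embryos. The CC_cont libraries lay within the IVF range for Cd74 and above it for Pdgfa, and no co-treated library reached the IVF range. The cytochalasin B control was at 0.484 and 1.67 CPM for Cd74, within the co-treated range. For Pdgfa it was at 10.7 and 6.93 CPM, above that range. The log2 fold changes against IVF were -3.65 ± 0.57 for Cd74 and -3.21 ± 0.39 for Pdgfa (adjusted p = 2e-05 and 4.8e-07), and against CC_cont -3.52 ± 0.64 and -3.82 ± 0.43 (adjusted p = 0.00043 and 4e-06).

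Fads2 (chr19:10062765-10101746, minus strand), a desaturase of polyunsaturated fatty acids, was at 4.84, 3.35, 3.9 and 3.77 CPM in IVF, at 2.01 and 5.77 CPM in CC_cont and at 0 to 1.32 CPM (median 0.362) in co-treated embryos. Nrip3 (chr7:109758055-109782025, minus strand) was at 16.2, 17.3, 20.9 and 20.4 CPM in IVF, at 10.8 and 8.57 CPM in CC_cont and at 0.473 to 6.76 CPM (median 3.06) in co-treated embryos. Both genes were also lower with demethylase mRNA, by a log2 fold change of -2.19 ± 0.61 for Fads2 and -1.94 ± 0.52 for Nrip3 (adjusted p = 0.023 and 0.018). Against IVF their co-treated log2 fold changes were -3.23 ± 0.49 and -2.93 ± 0.39 (adjusted p = 1.2e-05 and 1.8e-06). In the cytochalasin B control, Fads2 was at 4.07 and 1.83 CPM, above its co-treated range. Nrip3 was there at 4.74 and 7.49 CPM, with replicate 1 within its co-treated range and replicate 2 above it.

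Dmrt1 (chr19:25505618-25604329, plus strand), a transcription factor of the testis and germ line, was at 7.96, 6.27, 5.13 and 6.91 CPM in IVF and at 0 to 1.67 CPM (median 0.728) in co-treated embryos, a log2 fold change of -3.48 ± 0.55 (adjusted p = 2.3e-05). The CC_cont libraries were at 4.02 and 0.372 CPM, so replicate 2 lay within the co-treated range, and the direct log2 fold change was -1.95 ± 0.66 (adjusted p = 0.039). S100a13 (chr3:90514435-90524581, plus strand), a calcium-binding protein, was at 5.31, 3.29, 3.31 and 3.63 CPM in IVF, at 3.04 and 1.12 CPM in CC_cont and at 0.27 to 0.862 CPM (median 0.58) in co-treated embryos (log2 fold change -2.86 ± 0.53, adjusted p = 0.00017). In the cytochalasin B control, S100a13 was at 2.71 and 0.637 CPM, with replicate 2 within its co-treated range. Dmrt1 was there at 6.87 and 5.26 CPM, above its co-treated range.

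**Figure D2:**
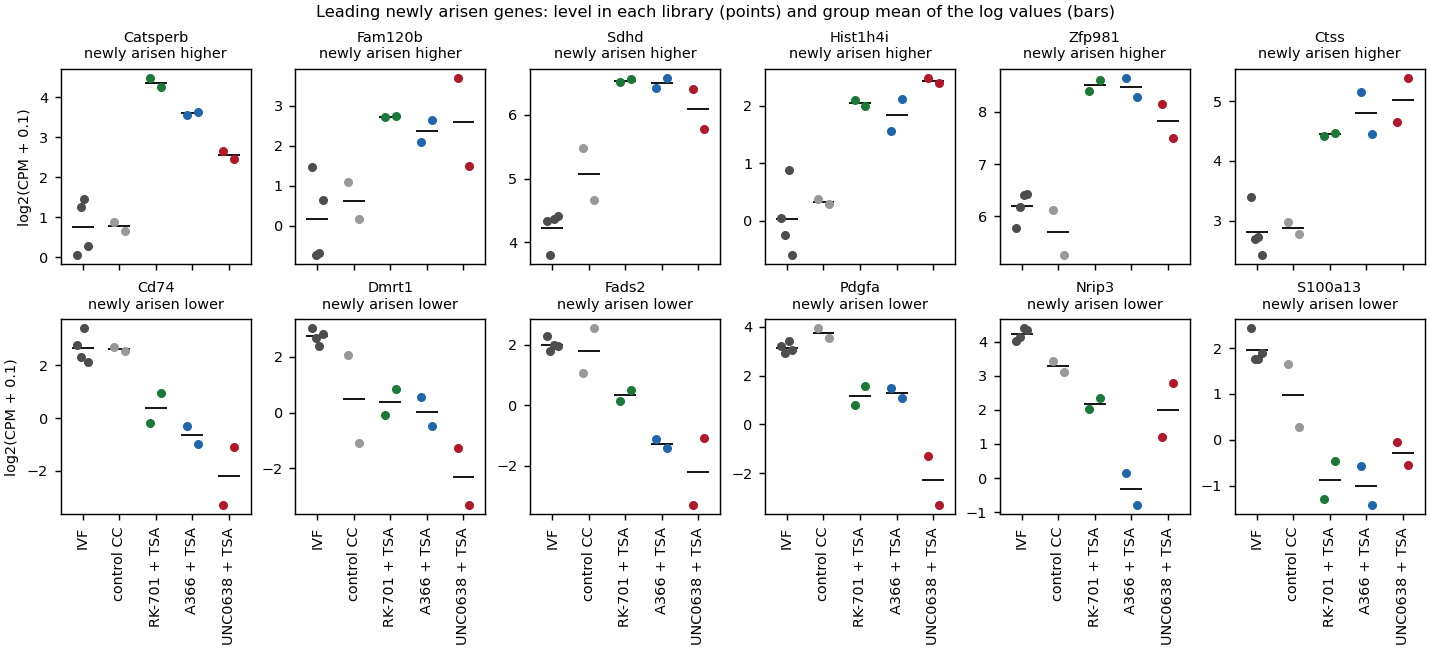
Level of the 6 leading newly arisen genes that were higher than IVF (top) and the 6 that were lower (bottom) in each library, on the vertical axis as log2(CPM + 0.1), with 1 point for each library and a bar at the mean of the log values for each group. Control CC points lie near IVF for Catsperb, Ctss and Cd74 and away from the co-treated points, and CC_cont replicate 2 of Dmrt1 (0.372 CPM) lies among the co-treated points.

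The classes differed in level and in how firmly a gene could be read. Residual genes that were higher were at a median of 2.08 TPM in IVF, 8.09 in co-treated embryos and 12.3 in CC_cont, and those that were lower at 15.3, 3.10 and 3.05 TPM. In the group where a gene was higher, all libraries held at least 30 of its reads for 492 of the 733, in 443 of the 626, in 60 of the 64 newly arisen genes that were higher, and in only 74 of the 243 that were lower. Most newly arisen genes that were lower therefore rest on few reads. Every co-treated library lay outside the IVF range for 636 of the 733, 586 of the 626, 63 of the 64 and 171 of the 243. Since the rule used the same contrast, these counts describe the classes. Over all 25794 genes tested, every co-treated library lay below every IVF library for 2819. The matching count for the higher direction was not computed. The genes closest to the limits were Rrm2, whose smallest log2 fold change among the compounds was 1.00, and AC131185.2, with an adjusted p of 0.0499. Just outside lay Rhcg, whose smallest log2 fold change was 0.9996, and Gm9476 at an adjusted p of 0.0500.

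The comparison of demethylase mRNA with the cytochalasin B control used neither the IVF, CC_cont nor co-treated libraries and is thus a readout that did not choose the genes. Over all genes tested it called 594 higher (2.3%) and 648 lower (2.51%), with a median log2 fold change of -0.09. Of the 64 newly arisen genes that were higher, 12 were called higher (18.8%) and 0 lower, with a median of 0.71. Without CC_cont replicate 2, which changes the membership of the class, this count was 7. Of the 243 that were lower, 45 were called lower (18.5%) and 1 higher, with a median of -1.08. The residual genes that were higher had a median of -0.37, and 60 of 733 were called lower (8.19%) and 3 higher. Those that were lower had a median of 0.08, and 31 of 626 were called higher (4.95%) and 12 lower. The shares of the newly arisen genes in their own direction, 18.8% and 18.5%, stand beside 2.3% and 2.51% over all genes tested.

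**Figure D3:**
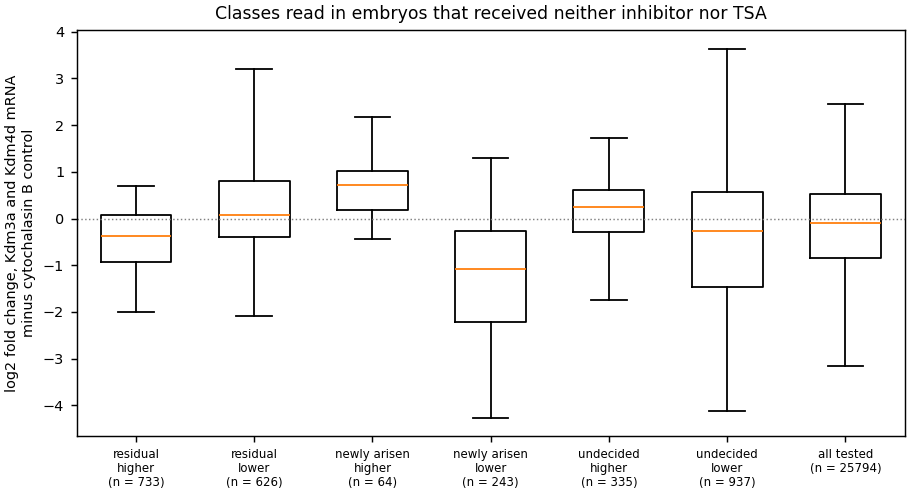
Log2 fold change of demethylase mRNA against the cytochalasin B control (vertical axis) for the genes of each class, with the median as a line, the quartiles as the box, and whiskers from the 5th to the 95th percentile over genes. The median is 0.71 for newly arisen genes that were higher and -1.08 for those that were lower, against -0.09 over all genes tested.

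Common genes that were higher made up 1.90% ± 0.04 (SD, n = 4) of all autosomal TPM in IVF and 5.24% ± 0.14 (n = 6) in co-treated embryos, and 5.24% in CC_cont. Common genes that were lower made up 9.47% ± 0.35 in IVF, 3.63% in CC_cont and 2.92% ± 0.55 in co-treated embryos. The 5 most abundant genes of the lower set are expressed in oocytes. Omt2b went from 15107 ± 1199 TPM in IVF to 4252 ± 1297 in co-treated embryos, Omt2a from 12624 ± 787 to 3771 ± 1012, and Oog3, a leucine-rich repeat gene of the oocyte, from 7106 ± 721 to 2988 ± 571. Tcl1, a coactivator of the kinase AKT, went from 5602 ± 414 to 1166 ± 294 TPM, and Oosp1, an oocyte-secreted protein, from 2110 ± 229 to 751 ± 227.

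All 5 of these genes were residual, with log2 fold changes from -1.17 ± 0.18 for Oog3 to -2.19 ± 0.29 for Tcl1 (adjusted p = 1.3e-05 and 2.1e-06). In CPM, Tcl1 was at 3381, 3826, 4067 and 3993 in IVF, at 796 and 279 in CC_cont, and at 607 to 1085 (median 878) in co-treated embryos. Neither CC_cont nor the co-treated embryos came near IVF. In the cytochalasin B control Tcl1 was at 593 and 2675 CPM, far apart and both below the IVF range. Omt2b (chr9:78327589-78329620, plus strand) was at 5461, 6075, 5873 and 5238 CPM in IVF, at 1190 and 770 CPM in CC_cont and at 1199 to 2317 CPM (median 1512) in co-treated embryos, all of them above both controls, and the direct log2 fold change of 0.77 ± 0.21 (adjusted p = 0.011) was below the 2-fold limit. Demethylase mRNA raised Omt2b by 1.16 ± 0.22 and Omt2a by 1.01 ± 0.19 (adjusted p = 0.0015 and 0.0012).

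Among the higher genes, the metallothioneins Mt1 and Mt2, which bind zinc and copper, went from 1547 ± 77.9 to 3317 ± 385 TPM and from 433 ± 33.8 to 983 ± 161 TPM. Hsp90ab1, a chaperone, went from 606 ± 32.1 to 1421 ± 130 TPM. Psma6, a subunit of the proteasome core, went from 531 ± 42.1 to 1319 ± 187 TPM, and Rpl7, a ribosomal protein, from 420 ± 51.3 to 920 ± 63.5 TPM. Mt2 was residual, Rpl7 newly arisen, and the other 3 undecided. Their log2 fold changes were under 2-fold both for CC_cont against IVF (0.80 for Mt1, 0.71 for Hsp90ab1 and 0.45 for Psma6) and for the direct comparison (0.38, 0.61 and 0.95). The pooled log2 fold changes of the 5 genes lay between 1.19 ± 0.11 for Mt1 and 1.40 ± 0.16 for Psma6 (adjusted p = 4.7e-09 and 1.4e-07).

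**Figure D4:**
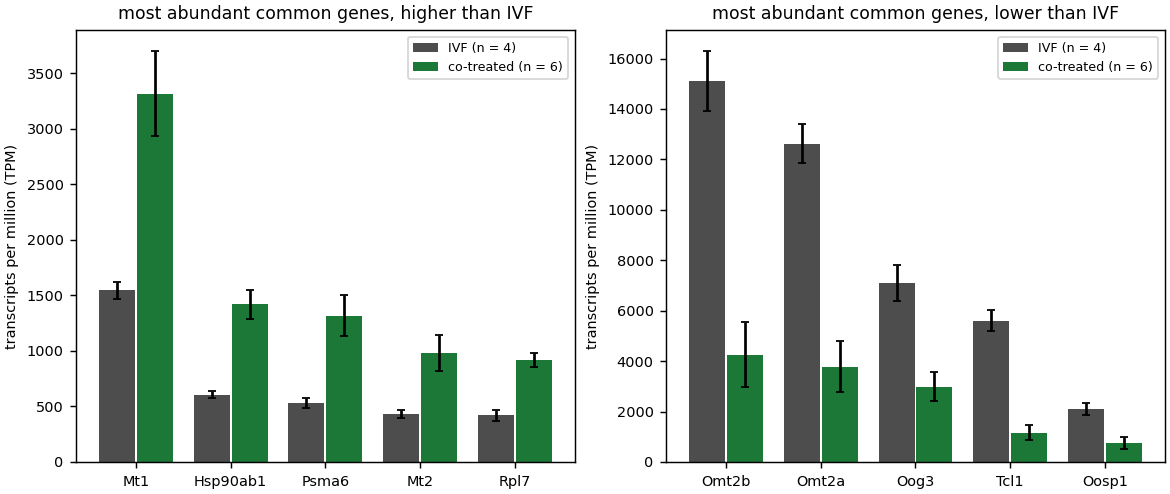
Mean TPM (vertical axis, starting at 0) of the 5 most abundant common genes that were higher (left) and lower (right), with bars for IVF (n = 4) and co-treated embryos (n = 6) and error bars of 1 SD over libraries. Omt2b falls from 15107 to 4252 TPM, and Mt1 rises from 1547 to 3317 TPM.

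The gene lists that follow were chosen with earlier results of these data known, and each is described by its counts beside the shares over all genes tested (6.27% higher and 10.1% lower). Of 47 oocyte-stored transcripts tested, 20 were called lower and 0 higher, 16 of them residual, and the median log2 fold change was -0.95 against -0.12 over all genes. Nlrp14, a maternal gene needed by the early embryo, was at 612, 693, 814 and 727 CPM in IVF, at 233 and 148 CPM in CC_cont and at 183 to 258 CPM (median 211) in co-treated embryos, a log2 fold change of -1.71 ± 0.15 (adjusted p = 1.8e-09). Sohlh1, a transcription factor of oocyte growth, was the newly arisen member, at 4.53, 2.42, 3.77 and 3.91 CPM in IVF, at 0.326 and 1.49 CPM in CC_cont and at 0 in 5 of 6 co-treated libraries (log2 fold change -7.28 ± 1.18, adjusted p = 4e-05). The oocyte donor strain differs between IVF and SCNT, and its part in these differences was not tested.

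Of 46 two-cell zygotic genes, 10 were called lower and 1 higher, 4 of them residual, with a median of -0.34 against -1.10 in CC_cont. Of the reprogramming-resistant genes that the study had selected on the IVF and control libraries of this series, 354 were still called lower (40.3%) and 1 higher, 168 were residual, and 338 rose directly from CC_cont (38.5%). Their median log2 fold change was -0.91 after co-treatment and -1.90 in CC_cont. Since that list was chosen on these samples, its direction is not independent evidence. Zscan4a belongs to the Zscan4 family of the two-cell state and is annotated here as an unprocessed pseudogene. It was at 153, 104, 173 and 139 CPM in IVF, at 3.53 and 4.38 CPM in CC_cont and at 24.5 to 56.4 CPM (median 27.4) in co-treated embryos. It was thus raised by 3.03 ± 0.32 on the log2 scale from CC_cont (adjusted p = 2e-06) and still below IVF by a log2 fold change of -2.15 ± 0.20 (adjusted p = 6.1e-09). Zscan4f was at 58.9, 34.0, 66.0 and 38 CPM in IVF and at 2.08 to 22.3 CPM (median 3.08) in co-treated embryos (log2 fold change -3.36 ± 0.34, adjusted p = 2.5e-08). Zscan4 copies are nearly identical, and reads with several positions were not counted, so the split between copies is uncertain.

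Some genes that were low in CC_cont were not called against IVF, which does not show that they were equal to it. Obox6, an oocyte-specific homeobox gene, was at 1273, 1089, 1258 and 1058 CPM in IVF, at 578 and 347 CPM in CC_cont and at 1149 to 1438 CPM (median 1266) in co-treated embryos, a log2 fold change of 0.12 ± 0.16 (adjusted p = 0.62). Obox8, of the same family, was at 486, 415, 506 and 418 CPM in IVF, at 85.3 and 65.7 CPM in CC_cont and at 383 to 597 CPM (median 501) in co-treated embryos, 0.15 ± 0.17 (adjusted p = 0.54). The co-treated range covered the IVF range for Obox8, and overlapped it for Obox6, while both controls lay below. Eif1a, a translation initiation factor gene of chromosome 18, and Terb2, which ties telomeres to the nuclear envelope in meiosis, had log2 fold changes of -0.07 ± 0.18 and -0.05 ± 0.15 (adjusted p = 0.82 and 0.86), Cstf2t, an RNA cleavage factor, 0.40 ± 0.16 (adjusted p = 0.070), and Cox7b2, a cytochrome oxidase subunit of the testis, -0.20 ± 0.73 (adjusted p = 0.88).

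Germline genes that somatic cells silence were called lower in 16 of 47 and higher in 2, and 10 of the 16 were residual. Ddx4, the RNA helicase Vasa of germ cells, was at 164, 130, 150 and 157 CPM in IVF, at 9.18 and 8.38 CPM in CC_cont and at 10.5 to 16.1 CPM (median 12.8) in co-treated embryos, a log2 fold change of -3.54 ± 0.21 (adjusted p = 3.8e-12) with a direct change of 0.55 ± 0.28 (adjusted p = 0.18). Tuba3b, a testis tubulin, was at 69.5, 52.2, 79.8 and 87.7 CPM in IVF and at 1.16 to 4.86 CPM (median 2.64) in co-treated embryos (log2 fold change -4.90 ± 0.37, adjusted p = 2.4e-10). Rpl39l, a ribosomal protein of the testis, was at 138, 151, 181 and 141 CPM in IVF, at 1.47 and 6.7 CPM in CC_cont and at 5.22 to 16.6 CPM (median 12.2) in co-treated embryos. It rose directly by 1.55 ± 0.43 (adjusted p = 0.013) and stayed below IVF by a log2 fold change of -3.75 ± 0.29 (adjusted p = 5.3e-10). No co-treated library reached the IVF range for Ddx4, Tuba3b or Rpl39l.

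RefSeq windows from 250 bases before to 50 after the start site were found for 38 of the 47 germline genes (80.9%) and for 14 of the 16 called lower (87.5%). A CpG-rich window had an observed-to-expected CpG ratio of at least 0.6 and a GC content of at least 50%. It was present in 12 of these 14 and in 16 of the 24 not called lower. Of all genes tested 56.1% had a window, and 56.8% of these were CpG-rich. For protein-coding genes tested the CpG-rich share was 61.7%. Over 25748 autosomal genes with a RefSeq window, tested or not, it was 36.7%. CACGTG, which reads the same on both strands, was present in 6 of the 14 and in 8 of the 24. Its share was 8.61% over genes tested, 8.93% over the protein-coding ones and 6.88% over the 25748 genes. Ddx4 and Sycp1, printed above, are 2 of the 6. Of the oocyte-stored genes called lower, 16 of 20 had a window (80.0%), and 2 of the 16 were CpG-rich. Over the whole oocyte-stored list 36 of 47 had a window (76.6%), and 6 of the 36 were CpG-rich (16.7%). The low share was thus not particular to the members called lower. For each of the classes under 70% of the genes had a window, and the same check over the classes is void.

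Imprinted genes were split. Of 20 genes with an imprint that rests on H3K27me3 on the maternal copy, 7 were called higher and 1 lower, and the median was 0.13 against 1.31 in CC_cont. Mbnl2, a splicing regulator, was at 1.09, 0.932, 1.3 and 2.16 CPM in IVF, at 26.2 and 22.0 CPM in CC_cont and at 2.97 to 5.29 CPM (median 4.15) in co-treated embryos. It fell from CC_cont by a log2 fold change of -2.55 ± 0.32 (adjusted p = 1e-05) and remained above IVF by 1.56 ± 0.33 (adjusted p = 0.00064). Bbx, a chromatin protein, was at 17.0, 7.89, 9.23 and 14.3 CPM in IVF, at 20.9 and 22.3 CPM in CC_cont and at 24.1 to 48.4 CPM (median 38.8) in co-treated embryos, 1.65 ± 0.21 (adjusted p = 1.4e-06). The co-treated libraries of Mbnl2 lay between IVF and the controls, and those of Bbx above both.

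Of 56 genes imprinted by DNA methylation, 12 were called lower and 6 higher. Phlda2, which limits placental growth, was at 105, 82.3, 76.8 and 110 CPM in IVF, at 1.68 and 4.84 CPM in CC_cont and at 0.514 to 4.71 CPM (median 3.32) in co-treated embryos, a log2 fold change of -4.98 ± 0.41 (adjusted p = 1.1e-09). Its neighbour Cdkn1c, a cell cycle inhibitor, was at 16.4, 19.3, 14.6 and 18.1 CPM in IVF and at 0.279 to 3.43 CPM (median 1.18) in co-treated embryos (log2 fold change -3.94 ± 0.53, adjusted p = 2.1e-06). The co-treated and control ranges overlapped for Phlda2, and the direct log2 fold changes of Phlda2 and Cdkn1c were -0.10 ± 0.53 and -0.20 ± 0.71 (adjusted p = 0.96 and 0.91). Nnat, a membrane proteolipid of neurons, was newly arisen, at 1.72, 0.621, 0.65 and 3.91 CPM in IVF, at 3.37 and 1.12 CPM in CC_cont and at 0 to 0.279 CPM (median 0.0759) in co-treated embryos (log2 fold change -4.11 ± 0.88, adjusted p = 0.00086).

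Of 34 early lineage regulators, 9 were called lower and 4 higher, with 7 of the 9 residual. Tbx3, a T-box factor of pluripotent cells, was at 34.7, 33.5, 39.0 and 38.8 CPM in IVF, at 1.03 and 1.77 CPM in CC_cont and at 0.0772 to 1.32 CPM (median 0.59) in co-treated embryos, a log2 fold change of -5.93 ± 0.49 (adjusted p = 1.4e-09). Sox2, a core pluripotency factor, was at 2.97, 4.78, 9.1 and 6.0 CPM in IVF and at 0.0697 to 0.705 CPM (median 0.261) in co-treated embryos (log2 fold change -4.30 ± 0.80, adjusted p = 0.00018). Eomes, a T-box factor of trophoblast, was at 2.5, 1.49, 3.51 and 0.838 CPM in IVF and at 0 in all 6 co-treated libraries, at least 9.52-fold lower, with 0 and 1.12 CPM in CC_cont. These 3 factors were taken from the members called lower, and each was below the IVF range in every co-treated library.

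Of 73 nuclear genes of oxidative phosphorylation, 16 were called higher and 0 lower (median 0.68), of 72 ribosomal proteins 11 and 0 (median 0.72), of 52 DNA replication genes 12 and 2 (median 0.53), and of 38 proteasome subunits 7 and 2 (median 0.57). Atp5k, a subunit of ATP synthase, was at 18.9, 25.8, 30.5 and 23.3 CPM in IVF, at 106 and 103 CPM in CC_cont and at 99.8 to 132 CPM (median 109.5) in co-treated embryos, a log2 fold change of 2.17 ± 0.13 (adjusted p = 7e-12). Sdhb, the iron-sulfur subunit of succinate dehydrogenase, was residual at 2.02 ± 0.17 (adjusted p = 2e-09), beside the newly arisen Sdhd. Rpl14 was at 118, 99.5, 117 and 99.3 CPM in IVF and at 295 to 354 CPM (median 330.1) in co-treated embryos, 1.59 ± 0.11 (adjusted p = 9.2e-11). Rfc3, a clamp loader subunit, was at 6.09, 2.92, 8.51 and 3.98 CPM in IVF and at 16.2 to 39.2 CPM (median 24.4) in co-treated embryos, 2.30 ± 0.25 (adjusted p = 9.7e-08). Psmb8, a subunit of the immunoproteasome, went the other way, from 0.468, 0.248, 0.715 and 0.209 CPM in IVF to 0 to 0.405 CPM (median 0.0349), with 5.0 and 2.7 CPM in CC_cont. Its log2 fold change was -2.93 ± 0.87 against IVF (adjusted p = 0.013) and -6.14 ± 0.88 against CC_cont (adjusted p = 4.5e-05), and without IVF replicate 3 the difference from IVF was -2.45 and no longer called.

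Of 55 spliceosome genes 2 were called higher and 0 lower, of 68 ribosome biogenesis genes 3 and 0, of 34 heat shock and chaperone genes 1 and 0, of 39 mitosis genes 1 and 1, and of 19 glycolysis genes 0 and 1. Lsm3, a spliceosome component, was at 13, 13.4, 17.1 and 15.7 CPM in IVF and at 75.3 to 102 CPM (median 93.3) in co-treated embryos, a log2 fold change of 2.62 ± 0.19 (adjusted p = 9.2e-11). The glycolysis member was Ldha, lactate dehydrogenase, at 27.2, 32.0, 30.7 and 41.8 CPM in IVF, at 41.1 and 14.8 CPM in CC_cont and at 8.87 to 17.6 CPM (median 10.7) in co-treated embryos (log2 fold change -1.47 ± 0.24, adjusted p = 3.8e-05). It was newly arisen and also lower with demethylase mRNA, at -1.54 ± 0.32 (adjusted p = 0.0033).

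Stress genes moved in both directions. Of 23 genes of the integrated stress response, 3 were called higher and 1 lower, and all 3 were residual. Asns, asparagine synthetase, was at 6.71, 2.61, 3.25 and 2.58 CPM in IVF, at 27.1 and 16.2 CPM in CC_cont and at 24.5 to 68.6 CPM (median 33.7) in co-treated embryos, a log2 fold change of 3.33 ± 0.29 (adjusted p = 2.2e-09). Nupr1, a stress-induced transcriptional regulator, was at 11.2, 9.38, 9.81 and 9.77 CPM in IVF, at 181 and 96.5 CPM in CC_cont and at 43.1 to 74.0 CPM (median 59.3) in co-treated embryos, 2.50 ± 0.26 above IVF (adjusted p = 4e-08) and -1.29 ± 0.27 against CC_cont (adjusted p = 0.0013). Nupr1 thus fell from CC_cont, and the direct change of Asns was 0.73 ± 0.31 (adjusted p = 0.11).

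Of 32 p53 targets and arrest genes, 5 were called higher and 5 lower. Gadd45g, a growth arrest gene, was at 5.46, 2.42, 4.35 and 3.63 CPM in IVF, at 65.5 and 40.7 CPM in CC_cont and at 8.14 to 24.1 CPM (median 11.1) in co-treated embryos (log2 fold change 1.74 ± 0.29, adjusted p = 5e-05). Pmaip1, the pro-apoptotic factor Noxa, was at 46.8, 44.5, 47.4 and 63.7 CPM in IVF, at 1.74 and 0 CPM in CC_cont and at 3.16 to 11.4 CPM (median 5.5) in co-treated embryos (log2 fold change -3.06 ± 0.45, adjusted p = 8.1e-06). Of 40 actin and SRF-responsive genes 7 were called lower and 1 higher, among them Actn1, an actin cross-linker, at 9.68, 14.2, 12.4 and 13.3 CPM in IVF, at 10.3 and 16.8 CPM in CC_cont and at 1.89 to 3.21 CPM (median 2.5) in co-treated embryos (log2 fold change -2.33 ± 0.26, adjusted p = 1.6e-07). Actn1 was newly arisen, and all 6 libraries lay below IVF and both controls. Of 24 sterol synthesis genes 4 were called lower and 1 higher.

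Few chromatin enzymes were called. Of 24 histone deacetylases and 16 genes of the DNA methylation machinery, 0 were called in either direction by edgeR. Of 21 H3K9 methyltransferases and partners 1 was called higher and 1 lower, and of 14 H3K9 demethylases 2 and 1. Ehmt2, which encodes the inhibited enzyme G9a, was at 10.1, 9.32, 9.68 and 11.4 CPM in IVF, at 30.8 and 30.4 CPM in CC_cont and at 20.9 to 26.3 CPM (median 24.4) in co-treated embryos, a log2 fold change of 1.25 ± 0.17 (adjusted p = 2.3e-06). Ehmt1 was at 52.1, 49.3, 61.1 and 42.5 CPM in IVF and at 74.8 to 95.6 CPM (median 82.5) in co-treated embryos, 0.70 ± 0.15 (adjusted p = 0.0011), below the 2-fold limit. The RNA of both enzymes was thus above the IVF range in every co-treated library, and neither changed directly by the call against CC_cont (log2 fold changes of -0.34 ± 0.20 and 0.04 ± 0.19, adjusted p = 0.24 and 0.95). Kdm4c, an H3K9 demethylase, went from 87.4, 78.6, 86.4 and 77.9 CPM in IVF to 160.1 to 218 CPM (median 184), 1.16 ± 0.13 (adjusted p = 1.8e-07).

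Receptors of smell and pheromones formed the longest list. Of 289 olfactory and vomeronasal receptor genes tested, 50 were called lower (17.3%) and 6 higher (2.08%), 15 of the 50 residual and 3 newly arisen. The median log2 fold change was -1.20, and 32 of the genes had no read in 1 of the groups. Vmn1r53, a pheromone receptor, was at 2.5, 2.73, 1.95 and 0.698 CPM in IVF and at 0 to 0.386 CPM (median 0) in co-treated embryos, a log2 fold change of -6.00 ± 1.08 (adjusted p = 0.00025). Of 28 replication-dependent histone genes 1 was called higher and 2 lower, and of 15 genes of the Prame and Oog family 2 and 3. Pramel4 of that family was newly arisen and higher, at 48.2, 40.1, 50.1 and 35.6 CPM in IVF and at 116 to 164 CPM (median 126) in co-treated embryos (log2 fold change 1.63 ± 0.19, adjusted p = 2.7e-07), and also higher with demethylase mRNA at 1.03 ± 0.25 (adjusted p = 0.010).

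**Figure D5:**
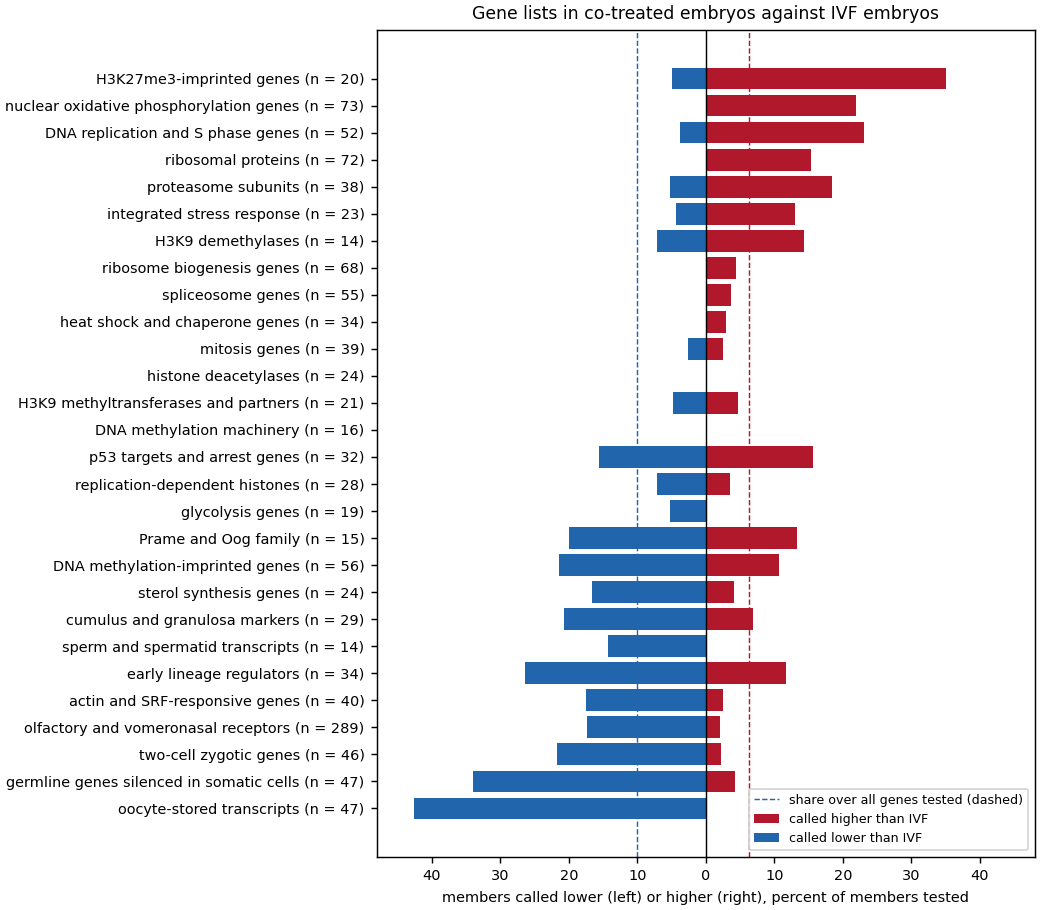
Percent of the tested members of each gene list called lower (left, blue) or higher (right, red) than IVF in co-treated embryos, with dashed lines at the shares over all genes tested (10.1% and 6.27%). Oocyte-stored transcripts reach 42.6% lower with 0 higher, and H3K27me3-imprinted genes 35.0% higher.

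Markers of other cells that a pool could hold were low. The 12 cumulus and granulosa markers summed to 32.7 to 47.1 CPM in IVF, 30.6 to 38.5 CPM in CC_cont and 32.9 to 47.0 CPM in co-treated embryos, most of it Amhr2 (27.2 to 33.0 CPM in IVF), and Inha and Ptx3 were at 0 in every library. Of the wider list of 29 cumulus and granulosa genes, 6 were called lower and 2 higher, with a median log2 fold change of -1.09 against IVF and of -1.50 against CC_cont, where 9 were called lower and 0 higher. Vim, the intermediate filament protein vimentin, was at 3.12, 4.84, 5.39 and 3.14 CPM in IVF, at 4.56 and 1.68 CPM in CC_cont and at 0 to 1.32 CPM (median 1.01) in co-treated embryos (log2 fold change -2.32 ± 0.62, adjusted p = 0.0054). S100a11, a calcium-binding protein, was at 0.468, 0.559, 0.26 and 0.489 CPM in IVF, at 9.94 and 9.5 CPM in CC_cont and at 1.88 to 6.41 CPM (median 3.33) in co-treated embryos (log2 fold change 2.93 ± 0.43, adjusted p = 8.2e-06). Sperm markers summed to 0.745 to 2.93 CPM in IVF and 0.714 to 2.82 CPM in co-treated embryos, and 2 of 14 sperm genes were called lower. The 6 two-cell markers, which define the labelled stage, were detected in every group and summed to 862 to 1061 CPM in IVF, 280 to 476 CPM in CC_cont and 386 to 1350 CPM in co-treated embryos. The 6 oocyte markers summed to 1385 to 1750, 986 to 1173 and 702 to 1203 CPM. Both UNC0638 libraries exceeded every IVF library for the two-cell markers Zfp352 (499 and 535 CPM against 272 to 338) and Usp17lc (178 and 213 against 59.3 to 83.6). The same held for Tdpoz4 (148 and 114 against 48.2 to 69.2). They lay within the IVF range for Usp17la, on both sides of it for Obox3 and below it for Zscan4d. With A366 and RK-701, Zfp352 was at 139 to 164 CPM and Usp17lc at 26.2 to 42.9 CPM, both below IVF. The part of these levels in the gene differences was not tested.

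The 3 inhibitors were given at the same dose and for the same time. The test of any difference among them was passed by 340 of the 25794 genes (1.32%, adjusted p alone), and by 87 without UNC0638 replicate 2. In the pairs, A366 was higher than RK-701 in 2 genes and lower in 1, UNC0638 was higher than RK-701 in 146 and lower in 54, and UNC0638 was higher than A366 in 171 and lower in 23. In the classes the test of any difference was passed by 4 of 733, 6 of 626, 2 of 64 and 2 of 243 genes. The rule for common genes asks each compound for the same direction and over 2-fold, which removes genes on which the compounds disagree. These counts are therefore partly set by the rule and do not measure agreement among the inhibitors. Zscan4d was at 27.9 and 27.4 CPM with A366, at 22.8 and 47.8 CPM with RK-701 and at 139 and 85.2 CPM with UNC0638, against 157 to 204 CPM in IVF. Obox3, a homeobox gene of the same stage, was at 139 to 164 CPM with A366 and RK-701 and at 368 and 279 CPM with UNC0638, against 301 to 364 CPM in IVF. Their log2 fold changes against IVF were -2.34 ± 0.40, -2.69 ± 0.41 and -0.68 ± 0.36 for Zscan4d and -1.17 ± 0.24, -1.13 ± 0.24 and -0.03 ± 0.23 for Obox3 with RK-701, A366 and UNC0638 (adjusted p of any difference 0.010 and 0.021). Neither gene is among the common ones. Without the UNC0638 libraries the pooled difference of Obox3 became -1.15 and was called, and 131 newly arisen genes were higher instead of 64.

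Some common genes lay next to each other. On chromosome 17, from 36038407 to 36121465, the 5 neighbours H2-T22, H2-Bl, H2-T-ps, BC023719 and H2-T10 of the histocompatibility region were lower, and their sequences are alike, so that reads may be split among them. On chromosome 7, from 97371606 to 97459557, Alg8, Ndufc2, Thrsp and Kctd14 were higher.

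Measured over the common genes as a distance in log2(TPM + 1) from the mean of the IVF libraries, IVF libraries lay at 25.4 ± 1.86 (SD, n = 4), CC_cont at 86.3 ± 3.98 (n = 2), and the co-treated groups at 85.8 ± 1.18 for RK-701, 83.3 ± 0.14 for A366 and 82.1 ± 2.62 for UNC0638 (n = 2 each). Embryos with Kdm4d mRNA lay at 76.2 ± 1.86 and those with Kdm3a mRNA at 81.9 ± 0.80 (n = 2 each), and clones given RK-701 without TSA at 76.1 ± 0.83 (n = 3). Clones given A366 without TSA lay at 83.7 ± 2.38, those given TSA without an inhibitor at 84.3 ± 2.93, and the cytochalasin B control at 86.3 ± 1.83 (n = 2 each). The genes were chosen on the contrast of co-treated and IVF embryos, which can enlarge the co-treated distance beside those of the other clones. The distances are thus a description and not a test, and they do not rank the groups.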

How the data were processed

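RNA-seq libraries were made from pools of late two-cell embryos. Per the labels and the study's methods, reads were trimmed with Trimmomatic, aligned to mm10 with STAR keeping uniquely mapped reads, and counted without strand by featureCounts (1.6.2) over a joint annotation of genes and repeats. The authors deposited raw read counts for each feature, 55375 genes and 1755056 repeat copies, in 1 table.

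Groups were taken from the sample labels. Gene counts were analysed in R 4.3.3 with edgeR 4.0.16 (quasi-likelihood test, TMM factors, 1 fit of 25 libraries in 11 groups), on autosomal genes averaging 1 read or more over the libraries, with Benjamini-Hochberg adjustment over 25794 genes. Values after ± on the log2 scale are standard errors, and those after ± on TPM are standard deviations. The pooled contrast was the mean of the 3 co-treated groups minus IVF. The demethylase contrast was the mean of both mRNA groups minus the cytochalasin B control. CPM used the library total times its TMM factor. TPM was computed from gene lengths over autosomal genes. The alternatives used DESeq2 1.42.0, RLE factors, other filters, samples, references and thresholds, a replicate block, and each library left out. Figures and tables used Python 3.11.15, pandas 2.3.3 and matplotlib 3.10.9. Promoter sequence came from RefSeq (GRCm38.p6).

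Gene reads per library numbered 6662727 to 16791202 in IVF, 9259726 and 16604899 in CC_cont and 13992805 to 15602397 in co-treated embryos. Intervals and floors (3 reads per library) cover counting error only, because reads carried no molecular identifiers. No pair of libraries held identical values. Same-numbered replicates of different groups correlated at -0.05 to 0.10 in their deviations from group means, so numbers were not taken as pairs. In data simulated from these libraries for the pooled comparison, 182 of 200 genes changed 4-fold among 25794 were called, 153 in the right class and 0 in a wrong one. The changed genes were drawn only from those above a minimum of mean reads. Residual genes were given the same change in every clone group. The recovery therefore does not carry over to genes with few reads or to control replicates that differ.

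The genes named were the 6 of each class with the largest pooled change with 30 or more reads in every library of the group where the gene was higher and an established symbol, the 5 most abundant common genes in each direction, genes that the study discusses, and up to 4 called members of each list. The members and gene lists were chosen with earlier results of these data known.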

Additional observations from a re-analysis of the deposited data

Results flagged for a closer look

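Among 123 named genes, 15 had 1 IVF library far from the other 3 by Dixon's ratio of gap to range, which chance gives in about 1 in 20 groups, and 6 differed among the inhibitors. IVF replicate 1, the shallowest library, stood apart for S100a13 (ratio 0.832, 5.31 CPM against at most 3.63), Oosp1 (0.835), Adamts2 (0.931), Asns (0.839), Srebf2 (0.863), Hist1h2be (0.886), Vmn1r195 (0.941) and Pxdn (1.0, 0.156 CPM against 0). IVF replicate 2 stood apart for Sdhd (0.849), Pramef6 (0.840) and Pramef20 (0.876). IVF replicate 3 stood apart for Psma7 (0.860) and Slc39a8 (1.0, 0.26 CPM against 0). IVF replicate 4 stood apart for Pmaip1 (0.853) and Junb (0.852). The cause was not tested.

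The test of any difference among the 3 inhibitors gave adjusted p = 0.0145 for Pdgfa, whose log2 fold changes against IVF were -1.97 for RK-701, -1.89 for A366 and -5.77 for UNC0638. For Zscan4d (0.0103), Obox3 (0.0208), Zscan4f (0.0060) and Mecom (0.0225) the UNC0638 libraries lay nearest to IVF, at log2 fold changes of -0.68, -0.03, -1.71 and -0.57. For Psmb3 (0.0346) the log2 fold changes were 1.95, 1.64 and 0.97 in the same order.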

How the results depend on the processing

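Of 2945 recomputed values of the 123 named genes under 24 alternatives, 2817 kept their direction and side of the threshold, 122 lost the call, 1 gained it (Obox3) and 5 changed sign. With adjusted p under 0.01, counts were 1623 lower in the pooled comparison, 1164 common lower, 378 residual lower, 98 newly arisen lower, 733 lower in the direct comparison, 131 for any compound difference, 373 and 206 higher and lower with demethylase mRNA, and 4 and 10 newly arisen genes higher and lower that the demethylases also called. With each compound called alone they were 742 and 545 common, 381 residual lower, 65 newly arisen lower and 16 of the latter called with demethylase mRNA. With the mean of both controls as reference 947 genes were residual lower, and 20 newly arisen higher genes were called with the demethylases, against 22 with the cytochalasin B control and 6 with RLE factors. Without the UNC0638 libraries, an alternative added after seeing the data, 131 genes were newly arisen higher, 21 of them called with the demethylases. Without a filter 735 genes differed among the compounds. With the replicate block, whose numbers the labels tie to no shared origin, 204 did, and 29 newly arisen lower genes were called with the demethylases. Leaving out 1 library gave 372 to 622 residual lower, 32 to 123 newly arisen higher, 489 to 1665 higher and 1044 to 1652 lower in the direct comparison, 87 to 467 for any compound difference, and 7 to 17 newly arisen higher genes called with the demethylases, mainly through the CC_cont and UNC0638 libraries. The sign changed for uncalled genes: Eif1a (-0.19 to 0.021), Terb2 (-0.10 to 0.0026, 0.0025 without IVF replicate 1, and -0.15 without UNC0638) and Cox7b2 (-0.96 to 0.076, and 0.24 without UNC0638). A pseudocount of 0.1 in the distances gave 49.1 for IVF and 137 for CC_cont. Matching promoters by Ensembl identifier was not run. Of the 243 newly arisen lower genes, 74 had 30 reads or more in every IVF library.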
